A study of Mus musculus with 6 samples.

Results

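Ribosome biogenesis genes encode the proteins that transcribe, modify and fold ribosomal RNA (rRNA) in the nucleolus and assemble it with ribosomal proteins. The group described here was a fixed list of 33 mouse genes, of which 32 had a probe set of their own on the array; the array held 22180 such genes in all. Each gene was represented by the probe set annotated with that gene alone and, where there were several, by the one with the highest mean over the arrays. Fbl, which encodes fibrillarin, the rRNA methyltransferase of box C/D particles, shared its probe set with another gene and was not analysed here. The 32 genes fall into 6 genes of RNA polymerase I (Pol I) transcription, 8 of small nucleolar ribonucleoprotein particles (snoRNPs), 9 of small subunit maturation, 8 of large subunit maturation, and Myc.

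The data were 6 microarrays of LT-HSC, the long-term haematopoietic stem cells of the marrow, a population able to rebuild blood for life, sorted from C57/BL6 bone marrow 4 months after bone marrow transplantation. The NPMc+ group comprised 3 arrays, each from a pool of animals that expressed NPMc+, a mutant nucleophosmin located in the cytoplasm, and the control group comprised 3 arrays, each from a pool of control animals. Both groups share the transplantation and the sort; the labels give neither the promoter or locus that drives the mutant nor the number of animals in a pool. The comparison asked whether the genes that build ribosomes differ in level between NPMc+ and control stem cells.

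Pol I transcribes the long rRNA precursor, with Ubtf and Rrn3 bringing it to the ribosomal DNA promoter. snoRNPs then guide methylation and pseudouridylation of the precursor, and separate assembly pathways cut and fold it into small and large subunits. Nucleophosmin, the protein mutated in NPMc+, is an abundant nucleolar protein that takes part in ribosome assembly, and Myc is a transcription factor known to raise many of these genes in growing cells. Stem cells at rest are known for low protein synthesis.

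Values are log2 expression, in which 1 unit is a 2-fold difference, and every difference is NPMc+ minus control. The arrays of a pair carry the same replicate number. The NPMc+ and control arrays of a pair averaged to the same value in pairs 1, 2 and 3, within 0.001 log2 units, for 100% of the 41345 probe sets; the step that tied them is not given in the sources used here. Only the 3 differences within pairs therefore vary independently, and the groups of a gene lie apart without overlap exactly when all 3 differences have the same sign. The standard errors (SE) and p-values are from limma with the replicate number as a block, adjusted by Benjamini-Hochberg over the 16635 genes tested; all 32 members were among them.

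Across the series, 0 genes passed an adjusted p of 0.05 in limma with the block (0% of those tested; the smallest adjusted p was 0.0928). With no adjustment, a p under 0.05 was found for 989 genes higher in NPMc+ (5.95%) and for 503 lower (3.02%). The mean level of 13 LT-HSC markers lay between 6.82 and 6.93 in NPMc+ and between 6.29 and 6.41 in control. Of these, 11 had positive and 2 negative means, and the markers named here were picked after their values were seen. Angpt1 had means of 10.02 in NPMc+ and 9.05 in control, and Kit had 9.37 in NPMc+ and 8.94 in control. Procr differed little, with 5.41 in NPMc+ and 5.33 in control. The 2 lower in NPMc+ were Mllt3, with 7.03 in NPMc+ and 7.24 in control, and Fgd5, with 3.85 in NPMc+ and 4.05 in control. The mean level of 13 neutrophil and monocyte markers lay between 8.82 and 9.41 in NPMc+ and between 9.52 and 10.11 in control. Their pair medians were -1.70, -0.91 and -0.04, so pair 3 was near 0. Of the 13 means, 11 were negative and 2 positive, those of Mpo (0.17) and Elane (0.32). A list of 9 B cell markers lay between 4.66 and 4.77 in NPMc+ and between 5.97 and 6.08 in control, and 7 erythroid markers between 5.69 and 6.08 in NPMc+ and between 6.42 and 6.82 in control. A list of 10 T and NK cell markers lay between 4.69 and 4.91 in NPMc+ and between 5.22 and 5.44 in control, but it was split. Its means were negative for 7 genes and positive for 3: Gzmb (0.84), Nkg7 (0.48) and Klrb1c (0.30), each higher in all 3 pairs. The megakaryocyte list was higher in NPMc+: 8 markers lay between 6.15 and 6.30 in NPMc+ and between 5.29 and 5.44 in control, with 7 of 8 means positive. The RNA of the inactive X chromosome, Xist, differed by -5.44, -5.39 and 0.48 in pairs 1, 2 and 3. For 3 genes of the Y chromosome the pair medians were 4.68, 0.93 and -0.67. The part of other cells or of sex in the values below was not tested, and on arrays of sorted pools a different share of cells of a type and a different amount of RNA per cell (fewer cells or less RNA, for instance) cannot be told apart.

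The ribosome biogenesis genes as a whole lay close to the rest of the array. Their median difference was 0.07 log2 units, against 0.03 for all genes tested. None of the 32 passed the adjusted threshold (adjusted p-values in limma of 0.487 to 0.992). Rrp12 alone had an unadjusted limma p under 0.05, and it was higher, where 5.95% of all genes tested were higher and 3.02% lower. All 3 differences were positive for 7 genes (21.9%) and negative for 1 (3.12%), where 17.4% and 12.9% of all genes tested met these rules. Among the 7570 genes tested whose mean level lay within the range of the members, 23.0% were positive and 8.96% negative in all 3 pairs, and the median difference was 0.11, above that of the members. The 7 genes were Myc, Ubtf, Tcof1, Rrp12, Ddx21, Utp20 and Nop2, and the 1 negative gene was Nop58.

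**Figure D1:**
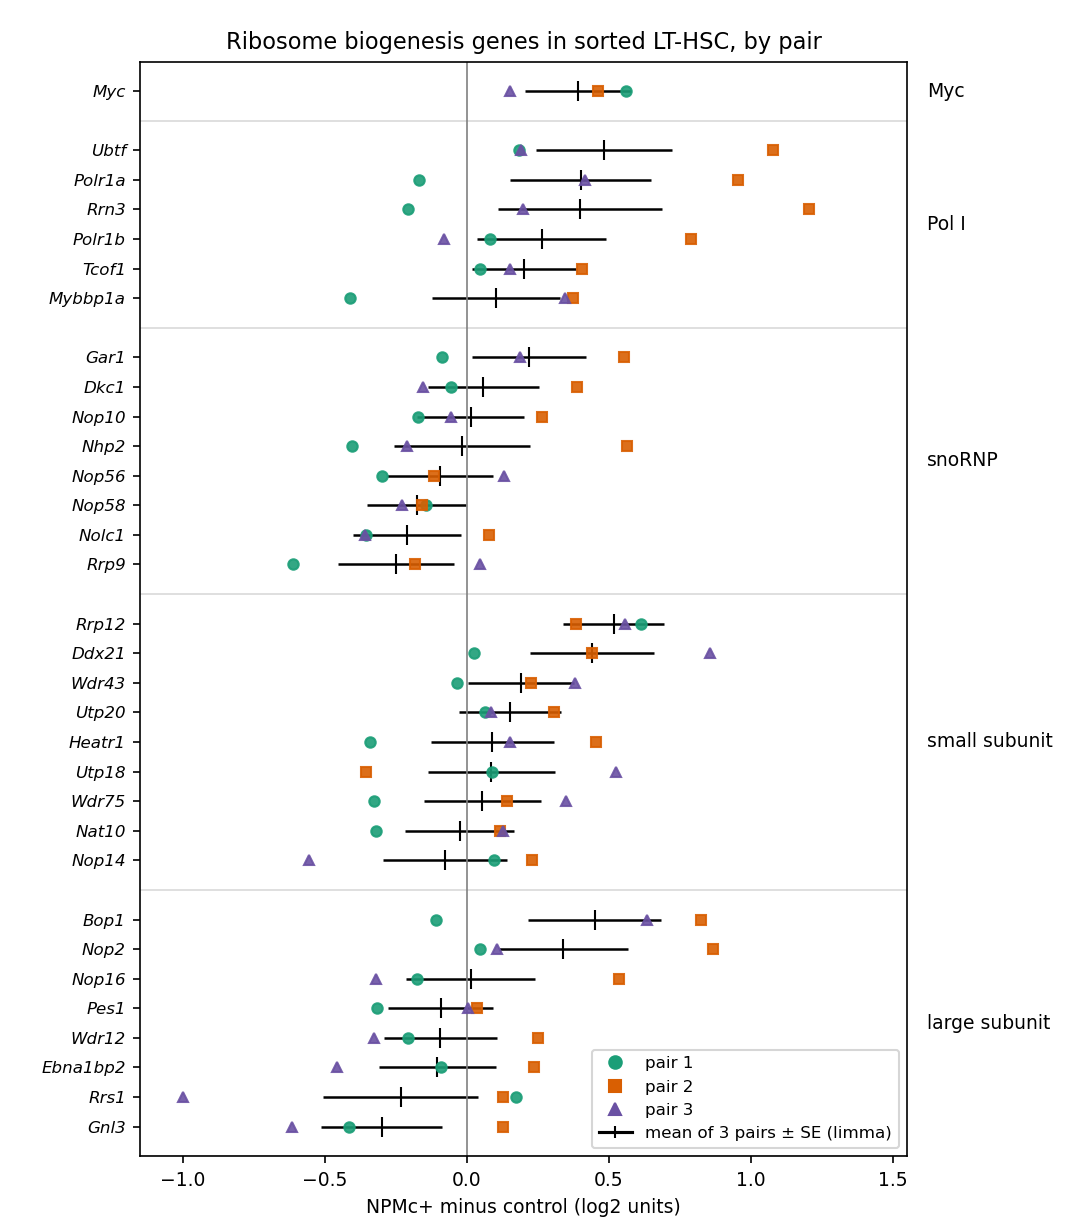
Difference between NPMc+ and control (log2 units, x axis) for each of the 32 genes, grouped by role; coloured symbols are the 3 pairs and the black mark with its bar is the mean of the pairs with limma's SE. In the Pol I rows the orange squares of pair 2 lie to the right of both other pairs, whereas the Rrp12 pairs lie together between 0.38 and 0.61.

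Myc, the transcription factor upstream of this machinery, had levels of 9.18, 9.13 and 8.98 on the NPMc+ arrays, against 8.62, 8.67 and 8.83 on the control arrays. All NPMc+ arrays lay above all control arrays. The mean difference was 0.39 ± 0.19 log2 units (SE, n = 3 pairs), or 1.31-fold, with a limma unadjusted p of 0.0769 and an adjusted p of 0.613, so it did not pass.

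Myc acts with Max and is opposed by the Mxd proteins and Mnt, which bind the same DNA. Of 12 genes of this network, 2 were higher in NPMc+ (the antagonists Mxd4 and Mnt) and 1 was lower (Mlx) at an unadjusted p under 0.05 in limma. Over all genes tested, 5.95% were higher and 3.02% lower by this rule. Other antagonists were lower or near 0: Mxd1 differed by -0.39 ± 0.23, Mxi1 by 0.03 ± 0.26 and Mxd3 by -0.02 ± 0.19. Mxd4 had 6.70, 7.15 and 7.04 in NPMc+, against 6.65, 6.20 and 6.31 in control, a difference of 0.58 ± 0.23 (limma adjusted p 0.542). Mnt had 5.97, 6.31 and 6.24 in NPMc+, against 5.82, 5.49 and 5.55 in control (0.55 ± 0.21, limma adjusted p 0.514). For both genes the groups did not overlap, and the smallest gap was in pair 1. Of the 12 genes, 33.3% were positive and 8.33% negative in all 3 pairs, against 17.4% and 12.9% of all genes tested. Mlx, which pairs with some of the Mxd proteins, had 6.22, 6.20 and 6.0 in NPMc+, against 6.59, 6.61 and 6.80 in control (-0.53 ± 0.19, limma adjusted p 0.510). Max itself differed by -0.03 ± 0.22.

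The canonical DNA element bound by Myc and Max is the E-box CACGTG, a palindrome. Of the members, 27 had a promoter in the RefSeq table (GRCm38.p6), taken as 250 bases before and 50 bases from each transcription start. Myc, Rrp12, Bop1, Tcof1 and Rrs1 had none there, so they are on neither side of the comparison by E-box below. The element occurred in the window of 7 of the 27 (25.9%), in 14 of 79 other ribosome biogenesis genes (17.7%), in 10.6% of 12845 genes tested and in 8.09% of 27025 genes in the table. The members had a median level of 7.76 and all genes tested 5.11, and no share was taken over genes of like level. No other motif was searched. The windows are shown because they place the E-box in each member that holds it; positions count from 1 at the transcription start, with -1 just before it, and letters are on the gene's strand, 5′ to 3′, with the E-box in capitals.

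Rrn3, first E-box base at -215, chr16:13780472-13780501, plus strand: gagcgccaaggtCACGTGcacacgcctcta
Rrn3, first E-box base at -48, chr16:13780639-13780668, plus strand: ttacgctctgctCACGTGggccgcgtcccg
Mybbp1a, first E-box base at 41, chr11:72441355-72441376, plus strand: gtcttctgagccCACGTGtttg
Utp18, first E-box base at -20, chr11:93885769-93885798, minus strand: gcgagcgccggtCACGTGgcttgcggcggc
Utp20, first E-box base at 38, chr10:88826765-88826789, minus strand: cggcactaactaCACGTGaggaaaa
Wdr43, first E-box base at 18, chr17:71616220-71616249, plus strand: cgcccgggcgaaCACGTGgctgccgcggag
Nop2, first E-box base at -60, chr6:125131811-125131840, plus strand: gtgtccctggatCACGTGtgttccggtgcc
Pes1, first E-box base at 3, chr11:3963965-3963994, plus strand: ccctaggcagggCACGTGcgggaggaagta

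Only Rrn3, among the 7, held more than 1 E-box, and its upstream 250 bases (chr16:13780449-13780698, plus strand) are shown whole to give the distance between them.
Rrn3 upstream: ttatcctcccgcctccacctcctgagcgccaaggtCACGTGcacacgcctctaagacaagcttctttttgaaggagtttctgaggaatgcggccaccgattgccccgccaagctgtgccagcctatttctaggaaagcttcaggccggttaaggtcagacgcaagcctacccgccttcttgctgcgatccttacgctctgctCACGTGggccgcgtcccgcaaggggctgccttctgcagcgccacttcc

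The 7 genes with an E-box had a median difference of 0.15 log2 units (range -0.09 to 0.40, 6 of 7 positive; pair medians -0.03, 0.30 and 0.20), beside -0.0028 for the 20 members with a promoter but no E-box (-0.30 to 0.48, 10 of 20 positive; pair medians -0.17, 0.26 and -0.07). Leaving out pair 2, an alternative chosen after seeing the data, gave the genes with an E-box a median of 0.075 with 4 of 7 positive, and those without one a median of -0.11 with 5 of 20 positive. Leaving out pair 1 gave medians of 0.30 (7 of 7 positive) and 0.11 (13 of 20). Leaving out pair 3 gave 0.095 (4 of 7) and 0.064 (13 of 20), so the share of positive genes was then lower with an E-box. With all 3 pairs, 65.0% of genes in the members' level range had positive means. The range of the genes with an E-box lay inside that of the others, and the difference between the medians was not tested. A match of letters is a description and does not show binding.

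The Pol I genes had the highest median of the role groups, 0.33 log2 units, and all 6 means were positive, but none passed the test (limma adjusted p-values of 0.623 to 0.931). Among genes in the members' level range, 65.0% of means were positive and pair 2 was the highest for 44.7%. For all 6 Pol I genes pair 2 gave the highest difference, at 0.37 or more. Their pair medians were -0.06, 0.87 and 0.19 in pairs 1, 2 and 3, and without pair 2 the median was 0.05, with 3 of 6 genes positive, below the 0.08 of the small subunit genes.

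Ubtf encodes the factor that keeps ribosomal DNA in an open state and marks it for Pol I. It had 7.21, 7.66 and 7.22 on the NPMc+ arrays, against 7.03, 6.58 and 7.03 on the control arrays. Its groups did not overlap, but pair 2 differed by 1.08 and pairs 1 and 3 by 0.18 and 0.19. The mean difference was 0.48 ± 0.24 (SE; 1.4-fold; limma unadjusted p 0.0854, adjusted p 0.623).

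Polr1a encodes the largest subunit of Pol I. Its levels were 7.42, 7.98 and 7.71 in NPMc+, against 7.59, 7.03 and 7.30 in control. NPMc+ was lower in pair 1 and higher in pairs 2 and 3, so the groups overlapped (0.40 ± 0.25, limma adjusted p 0.703).

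Rrn3, the growth-regulated initiation factor whose promoter is shown above, had 6.58, 7.29 and 6.79 in NPMc+, against 6.79, 6.09 and 6.59 in control. The difference of 1.21 in pair 2 was the largest single pair difference among the members, and pair 1 went the other way by -0.21 (mean 0.40 ± 0.29, limma adjusted p 0.753). Without pair 2 the mean was -0.01.

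Of the other Pol I genes, Polr1b, which encodes the other large core subunit, differed by 0.26 ± 0.23 (pairs 0.08, 0.79 and -0.08). Tcof1, which encodes treacle, a partner of Ubtf and Pol I, differed by 0.20 ± 0.18 with 3 positive pairs of 0.05, 0.40 and 0.15. Mybbp1a, a nucleolar protein known to hold back rRNA synthesis, differed by 0.10 ± 0.22 (-0.41, 0.37 and 0.34).

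**Figure D2:**
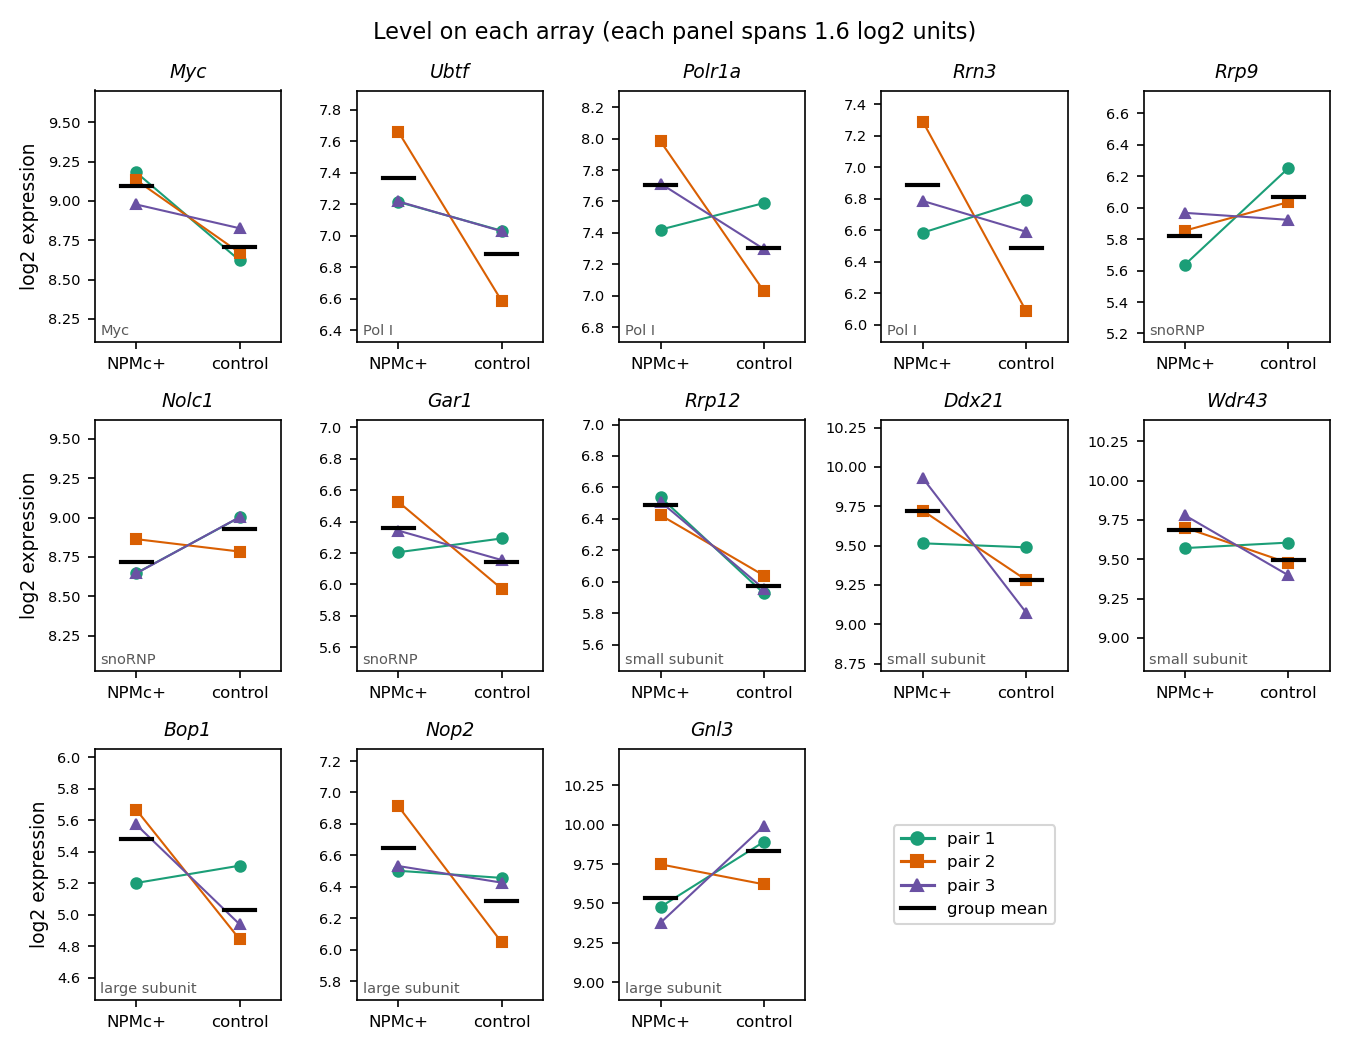
Log2 expression on each of the 6 arrays for Myc and the 3 genes of smallest p in each role group, with NPMc+ on the left and control on the right of each panel; thin lines join the arrays of a pair and black bars are group means. The wide orange lines of pair 2 in Ubtf, Polr1a, Rrn3 and Nop2 stand beside nearly parallel lines in Rrp12.

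The snoRNP genes had a median difference of -0.06 log2 units, with 3 positive and 5 negative means, and none passed (limma adjusted p-values of 0.785 to 0.991). All 8 were lower in NPMc+ in pair 1, where the median was -0.24; the medians in pairs 2 and 3 were 0.17 and -0.11.

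Box C/D particles, which guide rRNA methylation, were represented by Nop56 and Nop58, their paralogous core proteins, and by Rrp9, the protein specific to the U3 particle that helps cut the precursor. Rrp9 had 5.64, 5.85 and 5.97 in NPMc+, against 6.25, 6.04 and 5.92 in control, a difference of -0.25 ± 0.20 with pair 3 near 0. Nop58 had 9.79, 9.79 and 9.75 in NPMc+, against 9.94, 9.95 and 9.98 in control. Every NPMc+ array lay below every control array for Nop58, by a small margin (-0.18 ± 0.17, limma adjusted p 0.831; 95% interval -0.59 to 0.24).

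Nop56 differed by -0.10 ± 0.19, with pairs of -0.30, -0.12 and 0.13. Its probe sets disagreed: of the other 2 annotated with Nop56 alone, 1 had a mean difference of -0.04 and the other of -1.07, with pairs of 0.56, -1.74 and -2.04.

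Box H/ACA particles, which guide pseudouridylation and also stabilise telomerase RNA, had all 4 core proteins measured. Gar1 had 6.21, 6.53 and 6.34 in NPMc+, against 6.29, 5.97 and 6.16 in control (0.22 ± 0.20). Dkc1, the pseudouridine synthase dyskerin, differed by 0.06 ± 0.20, Nhp2 by -0.02 ± 0.24 and Nop10 by 0.01 ± 0.19. All 4 were higher in NPMc+ in pair 2, by 0.27 to 0.56, and lower in pair 1.

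Nolc1, a chaperone that accompanies both kinds of particle, had 8.65, 8.86 and 8.64 in NPMc+, against 9.0, 8.78 and 9.0 in control. NPMc+ was lower in pairs 1 and 3 and slightly higher in pair 2 (-0.21 ± 0.19, limma adjusted p 0.815).

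The small subunit genes had a median difference of 0.09 log2 units and included the member with the smallest p. Of their 9 means, 7 (77.8%) were positive, against 65.0% of genes in the members' level range. Rrp12, known from yeast as a factor that helps export both ribosomal subunits from the nucleus, had 6.54, 6.42 and 6.51 on the NPMc+ arrays, against 5.93, 6.04 and 5.95 on the control arrays. The groups were 0.38 apart at their nearest arrays, and the pair differences of 0.61, 0.38 and 0.55 were of like size. The mean difference was 0.52 ± 0.18 (SE, n = 3 pairs; 95% interval 0.09 to 0.94), or 1.43-fold, with a limma unadjusted p of 0.0244 and an adjusted p of 0.487. It ranked 832 by p among the 16635 genes. The unadjusted p was 0.115 without pair 1, 0.0368 without pair 2 and 0.0850 without pair 3.

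Ddx21, an RNA helicase that acts at ribosomal DNA and on snoRNPs, had 9.51, 9.72 and 9.93 in NPMc+, against 9.49, 9.28 and 9.07 in control. Its groups did not overlap, with pairs of 0.03, 0.44 and 0.86 (0.44 ± 0.22, 1.36-fold, limma adjusted p 0.623). The dimmer of its 2 probe sets had a mean difference of 0.24 and a negative pair 1, at -0.27.

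Heatr1, Wdr43 and Wdr75 belong to the UtpA complex, the first to bind the nascent precursor. Wdr43 had 9.57, 9.70 and 9.78 in NPMc+, against 9.61, 9.48 and 9.40 in control (0.19 ± 0.19). Heatr1 differed by 0.09 ± 0.22 and Wdr75 by 0.05 ± 0.21. All 3 genes were lower in NPMc+ in pair 1 and higher in pairs 2 and 3.

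Utp20, a large scaffold protein of the small subunit precursor, differed by 0.15 ± 0.18 with 3 positive pairs of 0.06, 0.30 and 0.09. Utp18, of the UtpB complex, differed by 0.09 ± 0.22; it was the 1 small subunit gene lower in NPMc+ in pair 2, at -0.36. Nop14, an assembly factor, differed by -0.08 ± 0.22 (pairs 0.09, 0.23 and -0.56). Nat10, which acetylates small subunit rRNA, differed by -0.03 ± 0.19 (pairs -0.32, 0.12 and 0.13).

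The large subunit genes had a median difference of -0.09 log2 units, with 3 positive and 5 negative means. Bop1, Pes1 and Wdr12 form the PeBoW complex, which is needed for processing of large subunit rRNA. Bop1 had 5.20, 5.67 and 5.57 in NPMc+, against 5.31, 4.84 and 4.94 in control. It was higher in NPMc+ in pairs 2 and 3 by 0.82 and 0.63 and lower by a small amount in pair 1 (0.45 ± 0.23, 1.37-fold, limma adjusted p 0.639).

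Its partners had differences near 0. Pes1 differed by -0.09 ± 0.18 and Wdr12 by -0.09 ± 0.20, and whether Bop1 differed from them was not tested.

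Nop2, a methyltransferase of large subunit rRNA, had 6.50, 6.91 and 6.53 in NPMc+, against 6.46, 6.05 and 6.43 in control. The groups did not overlap, yet pairs 1 and 3 differed by 0.05 and 0.11 and pair 2 by 0.87 (0.34 ± 0.23, limma adjusted p 0.728).

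Gnl3, which encodes nucleostemin, a nucleolar GTP-binding protein named for its high level in stem cells, had 9.48, 9.75 and 9.38 in NPMc+, against 9.89, 9.62 and 9.99 in control. It was lower in NPMc+ in pairs 1 and 3 and higher by 0.13 in pair 2 (-0.30 ± 0.21, 95% interval -0.81 to 0.21, limma adjusted p 0.742).

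Rrs1, known from yeast as an assembly factor of the large subunit, differed by -0.23 ± 0.27; its pairs were 0.17, 0.13 and -1.0. Its other probe set, with a lower signal, had a mean difference of 0.07, of opposite sign. Ebna1bp2 and Nop16, nucleolar proteins of large subunit assembly, differed by -0.11 ± 0.21 and 0.01 ± 0.23.

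The share of members higher in NPMc+ differed between the pairs. In NPMc+, 11 of the 32 genes (34.4%) were higher in pair 1, 28 (87.5%) in pair 2 and 20 (62.5%) in pair 3, where 50.4%, 54.5% and 53% of all genes tested were higher. The median over the 32 genes was -0.13, 0.34 and 0.12 in pairs 1, 2 and 3, and 0.00, 0.05 and 0.03 over all genes tested. Among the 7570 genes in the members' level range, 53.3%, 65.9% and 56.9% were higher in pairs 1, 2 and 3, with a median of 0.20 in pair 2. The members thus lay below these genes in pair 1 and above them in pairs 2 and 3.

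The highest of the 3 differences fell in pair 2 for 21 of the 32 genes (65.6%), against 44.7% of genes in the level range and 37.9% of all genes tested. Genes of proliferation had pair medians of -0.13, 0.18 and -0.05 (G1/S) and of -0.19, 0.13 and -0.16 (G2/M), an order of the pairs that genes in the level range (0.03, 0.20 and 0.07) and all genes tested also had. Of 18 genes of the G1/S transition, 15 (83.3%) were higher in NPMc+ in pair 2, 2 (11.1%) in pair 1 and 6 (33.3%) in pair 3. Pair 2 gave the highest difference for 88.9% of these genes, a larger share than the 65.6% of the members. Their mean level ranged from 7.56 to 7.84 on the NPMc+ arrays and from 7.5 to 7.78 on the control arrays. Of 19 G2/M genes, 12 (63.2%) were higher in pair 2, below the 65.9% of the level range, 3 in pair 1 and 7 in pair 3. Pair 2 gave the highest difference for 57.9% of the G2/M genes, and their mean levels were 8.22 to 8.41 in both groups. Whether cycling cells play a part in the pair differences of the ribosome biogenesis genes was not tested.

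**Figure D3:**
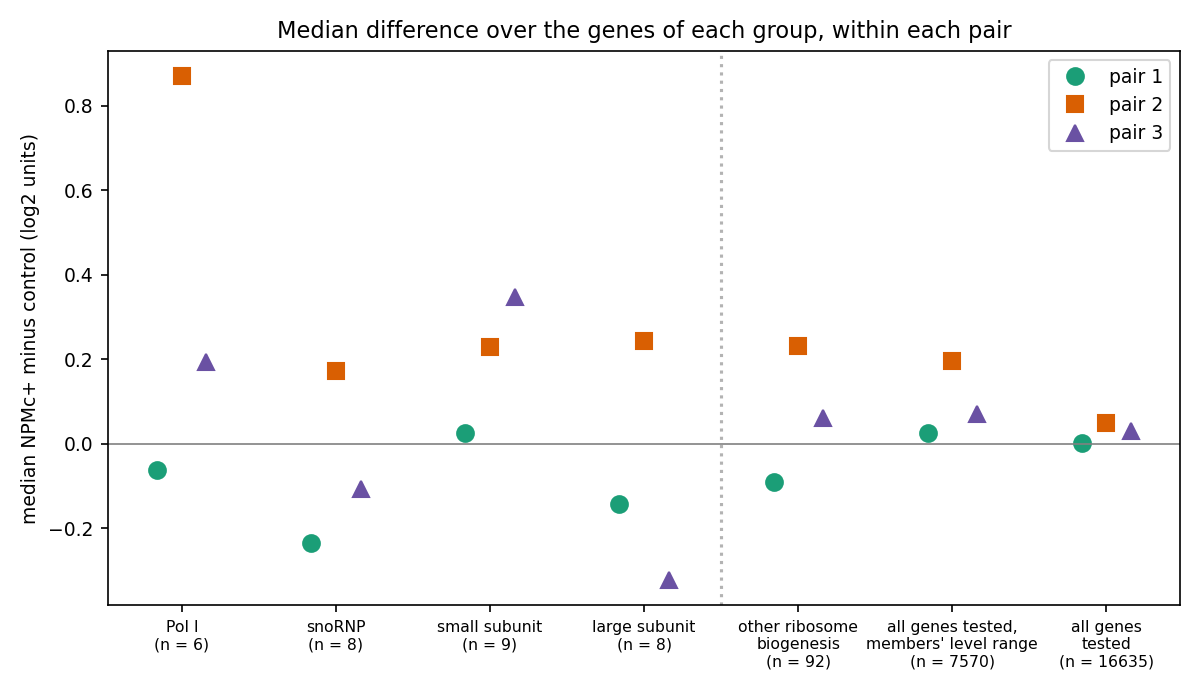
Median difference between NPMc+ and control (log2 units, y axis) within each pair, for the 4 role groups and, right of the dotted line, for other ribosome biogenesis genes, for all genes tested in the members' level range and for all genes tested. The Pol I median of 0.87 in pair 2 stands above the other 2 pairs, and the medians of all genes tested lie within 0.05 of 0.

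The rest of the pathway was described from a list of 96 further genes, of which 92 were tested. It had a median difference of 0.10 log2 units, with 63 positive (68.5%) and 29 negative means. This was close to the genes in the members' level range, whose median was 0.11 with 65.0% positive; over all genes tested 54.9% were positive. With no adjustment, 1 of the 92 was higher (Ddx51) and 2 were lower (Rrp7a and Dcaf13) at a limma p under 0.05. Over all genes tested the shares were 5.95% and 3.02%, so these calls did not set the list apart. Of the 92, 0 passed the adjusted threshold in limma. The pair medians of -0.09, 0.23 and 0.06 had an order found also for the genes in the level range and for all genes tested. The other 11 Pol I genes had a median of 0.11 and pair medians of -0.11, 0.41 and 0.01.

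Rrp7a, a small subunit assembly factor, had 6.25, 6.03 and 5.91 in NPMc+, against 6.50, 6.72 and 6.84 in control (-0.63 ± 0.21, limma adjusted p 0.471). Dcaf13, known from yeast as Sof1 of the small subunit processome, had 8.41, 8.32 and 8.41 in NPMc+, against 8.85, 8.94 and 8.85 in control (-0.50 ± 0.18, limma adjusted p 0.508). Ddx51, a helicase of large subunit processing, had 5.15, 5.54 and 5.18 in NPMc+, against 4.86, 4.47 and 4.83 in control (0.57 ± 0.22, limma adjusted p 0.534). The groups of each of these 3 genes did not overlap, which restates that their 3 differences had the same sign. Of the 92 genes, 14.1% were positive and 8.70% negative in all 3 pairs, against 17.4% and 12.9% of all genes tested.

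The abundant nucleolar phosphoproteins differed little. Npm1, the gene of nucleophosmin, had 11.65, 11.51 and 11.54 in NPMc+, against 11.68, 11.81 and 11.78 in control (-0.19 ± 0.18); whether its probe set reads the mutant is not given in the sources used here. Ncl, which encodes nucleolin, differed by 0.01 ± 0.17.

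**Figure D4:**
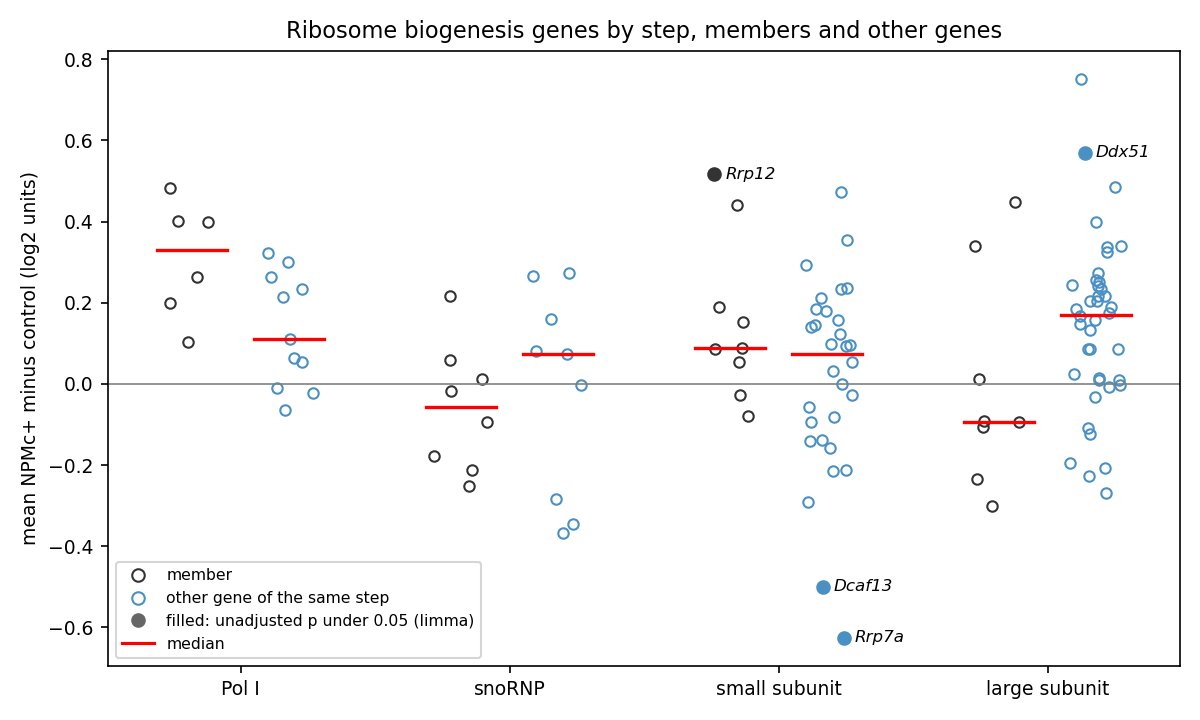
Mean difference between NPMc+ and control (log2 units, y axis) for each gene by step of ribosome biogenesis, members in black and other genes of the same step in blue; red lines are medians and filled circles are genes at an unadjusted p under 0.05 in limma. The filled circles are Rrp12, Ddx51, Dcaf13 and Rrp7a, and the members' medians range from -0.09 (large subunit) to 0.33 (Pol I).

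With the median SE of 0.21 log2 units for the 32 genes, the 95% intervals were wide: that of Ubtf ran from -0.09 to 1.06 and that of Polr1a from -0.20 to 1.0. A p that misses the threshold in this design does not show that a gene has equal levels in the groups.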

How the data were processed

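The deposited table holds log2 expression values of 41345 probe sets on 6 arrays; the submitters' processing notes name RMA (background correction, normalization and probe summary), with no version, and per the labels' protocols roughly 5 ng of total RNA per array went into the amplification. Array medians lay between 3.90 and 3.99. Gene names came from a platform annotation, in which 23521 probe sets had 1 symbol, 1814 several and 16010 none. One probe set per gene (highest mean) was kept, and those in the lowest 25% by mean level were dropped. Differences, NPMc+ minus control, went into a two-sided limma fit (version 3.58.1, eBayes; 2 residual and 4.54 prior degrees of freedom; R 4.3.3; tables read by data.table, release 1.17.8); the fit was tested on simulated data. Around the group means, arrays with the same number moved in opposite directions (correlation -1 in each of the 3 pairs), so the replicate number was a block. Alternatives are given in the closing section. The members, role groups and other lists were chosen with earlier results of these data known, so lists are described by counts and medians and were not tested. Every member is named; array values are given for Myc and the 3 genes of smallest p in each role group, and for those of the other ribosome biogenesis genes and the Myc network at an unadjusted p under 0.05; Npm1 and Ncl are named in any case. Array values of Nop58 were added after they were seen. Precision is limited by the number of arrays, and p-values measure the spread between these pools. Promoters came from RefSeq (GRCm38.p6). Python 3.11.15 and matplotlib 3.10.9 drew the figures.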

Additional observations from a re-analysis of the deposited data

How the results depend on the processing

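The fit with no replicate block uses 4 residual degrees of freedom, although the tied values carry 2. It called 828 genes at an adjusted p under 0.05 in limma, 557 higher and 271 lower in NPMc+. Rrp12 was the 1 member among them (adjusted p 0.0246). At an unadjusted p under 0.05, 5 members were higher (Myc, Ubtf, Rrp12, Ddx21 and Bop1) and 1 was lower (Nop58). Among all 16635 genes tested, 2500 were higher and 1638 lower by this rule, so such calls were not particular to the members. Leaving out 1 pair at a time gave 0 to 24 genes past the adjusted threshold (3 without pair 2, 24 without pair 3), 0 members among them. Between 0 and 2 members were higher at an unadjusted p under 0.05 (Polr1a and Bop1 without pair 1, where 934 of all genes tested were). The median of the Myc network ranged from -0.046 to 0.24, of the Pol I genes from 0.05 to 0.50, and of the small subunit genes from 0.08 to 0.24. Other medians changed sign: all members at -0.06 and other ribosome biogenesis genes at -0.03 without pair 2, snoRNP genes at 0.06 without pair 1, and large subunit genes at 0.11 without pair 3. Without pairs 1, 2 and 3 the means of 4, 7 and 8 members changed sign. Quantile normalization changed the sign of 2 members and median centring of 1. All 6 Pol I means stayed positive under both, and the medians of the role groups kept their sign. The filters on dim genes, the intensity trend, robust eBayes and the mean over probe sets left each count of members where it was. The causes of these changes were not tested. The design holds 3 differences per gene, so an exact sign-flip permutation test of a single gene cannot go below p = 0.25.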

Other observations

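Several members carry snoRNA genes within their bounds in the RefSeq table. Of the members, 5 (Nop56, Nop58, Gnl3, Wdr43 and Dkc1) held 16 such genes, and 7 of the 16 had a probe set of their own. Snord53 and Snord92, inside Wdr43, differed by 2.04 and 3.52 log2 units in pair 3, where Wdr43 itself differed by 0.38; in pair 1 they differed by 0.57 and -0.23 and in pair 2 by 0.12 and 0.44. Snord110, inside Nop56, had pairs of -0.30, 0.90 and 1.87. Snord19 and Snord69, inside Gnl3, had mean differences of -0.21 and -0.52, beside -0.30 for Gnl3, but their pairs went apart. Snord19 had pairs of -1.03, -0.32 and 0.74 and Snord69 of -0.38, -1.27 and 0.08. Gnl3 had -0.41, 0.13 and -0.62, of opposite sign to both in pairs 2 and 3. Snord11 and Snord70, inside Nop58, had mean differences of -0.21 and 0.32. Snord70 was dim, with a mean level of 3.60, below the array medians of 3.90 to 3.99. The snoRNA genes were chosen for their position and were not tested as a group.

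Ppan, a factor of large subunit assembly outside the members, was named after its values were seen. It had 8.23, 8.01 and 9.44 on the NPMc+ arrays, against 8.14, 8.36 and 6.92 on the control arrays, so that pair 3 differed by 2.52 while pairs 1 and 2 differed by 0.09 and -0.35 (mean 0.75 ± 0.52 SE, limma adjusted p 0.738).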
